A study of Mus musculus with 24 samples.

Results

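Collagens and laminins are the structural proteins of the extracellular matrix, and in these data they were read at the chromatin of their promoters. Members were taken by gene symbol and annotated start, without use of the counts, from regions that are themselves H3K4me3 peaks called in these data. The family was picked with earlier results of these data known. The set holds every H3K4me3 region that overlaps an annotated transcription start site (TSS) of a protein-coding gene whose symbol is Col, a number, a and a number, or Lama, Lamb or Lamc and a number. GENCODE release M1 annotates 54 such genes on mm9, of which 43 are collagen and 11 are laminin genes. A region was found for 36 of them, 26 collagen and 10 laminin genes, and these regions number 35 of the 17993 in the count files, of which 12985 overlap the TSS of any protein-coding gene. Col4a1 and Col4a2 share a region, as do Col4a3 and Col4a4, while Col2a1 has 2, called region A and region B here.

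H3K4me3, a histone mark found mainly at active promoters, was measured in the cerebral cortex of adult C57BL/6 mice carrying a cassette at the Rosa26 locus that expresses FLAG-tagged histone H2B from the CAG promoter. In single ChIP-Seq, chromatin was precipitated with an antibody against H3K4me3 alone, so that all cells of the tissue contribute. In tChIP-Seq (tandem ChIP-Seq), chromatin holding the tagged histone was taken first with an anti-FLAG antibody and then precipitated with the antibody against H3K4me3. Rosa H2B-FLAG mice, labelled Rosa CAG-H2B-FLAG, came from a cross with Vasa-Cre and express the tag in all cells from development on. Camk2a H2B-FLAG mice, labelled Rosa26 CAG-floxed-pA-H2B-FLAG/ CaMKCreERT2, carry the cassette and a tamoxifen-dependent Cre driven by the Camk2a promoter, both heterozygous, which restricts the tag to Camk2a-positive neurons. These were males that received 1 mg of tamoxifen a day for 5 days from the age of 8 weeks and were used a month later. No tamoxifen treatment, age in weeks or sex is given for the Rosa H2B-FLAG mice in the sources used here, so tamoxifen, age, sex and line cannot be told apart. Each of the 4 groups, 2 lines by 2 kinds of ChIP-Seq, held 3 libraries, each from a lysate of 2 animals, and the p-values measure the spread between these lysates. Single ChIP-Seq and tChIP-Seq libraries of a line carry the same replicate numbers, and whether a number marks a shared lysate is not given in the sources used here. If it does, the tests between the kinds of ChIP-Seq and of the interaction rest on 3 lysates in each line, not on 6 independent ones.

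Total counts per library over all regions ran from 6316125 to 8644574 in Rosa H2B-FLAG single ChIP-Seq, from 4063200 to 4233144 in Camk2a H2B-FLAG single ChIP-Seq, from 1457261 to 1828371 in Rosa H2B-FLAG tChIP-Seq and from 2709729 to 3049130 in Camk2a H2B-FLAG tChIP-Seq. Levels are in CPM, the unit that sets each region's count against the total count of its library, scaled by TMM factors over all 12 libraries. Fold changes come from edgeR's quasi-likelihood test fitted to the 6 libraries of each comparison, and a region was called where the p-value, adjusted over all 17993 regions by the Benjamini-Hochberg method, was under 0.01. The labels were checked on marker genes. The Camk2a region, the gene of a kinase of excitatory synapses, rose from 70.0 ± 3.92 CPM in tChIP-Seq of Rosa H2B-FLAG to 339 ± 13.8 CPM in tChIP-Seq of Camk2a H2B-FLAG (SD, n = 3 each), and Slc17a7, a glutamate transporter of synaptic vesicles, rose from 39.8 ± 0.42 to 125 ± 8.16 CPM. Cdh5, the cadherin of endothelial junctions, fell from 34.6 ± 3.58 to 4.21 ± 0.87 CPM. The Camk2a region was also called higher in Camk2a H2B-FLAG single ChIP-Seq, at 250 ± 12.1 against 174 ± 2.42 CPM (SD, n = 3 each).

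A laminin is a heterotrimer of an alpha, a beta and a gamma chain, and laminins polymerize at cell surfaces into the first sheet of a basement membrane, which receptors such as integrins and dystroglycan anchor to the cell. Collagen IV forms the second network of that sheet, nidogens and perlecan join the networks, and in the brain such membranes wrap the blood vessels and line the pial surface. Fibrillar collagens build the fibrils of connective tissue such as the meninges, fibril-associated collagens decorate those fibrils, and transmembrane collagens sit in the plasma membrane, several of them in neurons.

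The promoters on which the results turn most are given here in mm9, as 250 bases before and 50 bases from the TSS, each written 5′ to 3′ on the strand of its gene. Lamb2 and Lamb1 are the beta chain genes that moved in opposite directions. Lamc3 is a gamma chain gene that fell with Lamb2. Col4a1 stands for the shared collagen IV promoter, and Col19a1 is the collagen with a clear line difference at a region of high count. The windows lie at chr9:108381943-108382242 (Lamb2, plus strand), chr12:31949849-31950148 (Lamb1, plus strand), chr2:31742561-31742860 (Lamc3, plus strand), chr8:11312777-11313076 (Col4a1, minus strand) and chr1:24594262-24594561 (Col19a1, minus strand). Capitals mark matches on either strand to the GC box (GGGCGG or CCGCCC), the CCAAT box (CCAAT or ATTGG) and the TATA box (TATAAA or TTTATA).
Lamb2: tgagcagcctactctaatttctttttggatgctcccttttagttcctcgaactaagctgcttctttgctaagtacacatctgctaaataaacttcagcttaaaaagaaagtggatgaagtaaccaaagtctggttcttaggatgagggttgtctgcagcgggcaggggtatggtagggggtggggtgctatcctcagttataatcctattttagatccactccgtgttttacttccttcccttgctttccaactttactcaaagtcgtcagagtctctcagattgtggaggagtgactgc
Lamb1: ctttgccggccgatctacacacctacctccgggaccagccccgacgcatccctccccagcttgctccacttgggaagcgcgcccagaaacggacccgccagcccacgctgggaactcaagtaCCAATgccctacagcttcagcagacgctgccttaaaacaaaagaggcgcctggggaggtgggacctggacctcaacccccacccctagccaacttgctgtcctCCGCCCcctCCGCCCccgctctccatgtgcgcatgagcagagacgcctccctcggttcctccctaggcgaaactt
Lamc3: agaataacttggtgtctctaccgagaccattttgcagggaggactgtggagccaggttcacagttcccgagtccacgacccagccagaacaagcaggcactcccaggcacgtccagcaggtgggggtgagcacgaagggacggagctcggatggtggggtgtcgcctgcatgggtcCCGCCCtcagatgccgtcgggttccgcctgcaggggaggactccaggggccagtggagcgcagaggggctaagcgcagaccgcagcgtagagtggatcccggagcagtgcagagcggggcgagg
Col4a1: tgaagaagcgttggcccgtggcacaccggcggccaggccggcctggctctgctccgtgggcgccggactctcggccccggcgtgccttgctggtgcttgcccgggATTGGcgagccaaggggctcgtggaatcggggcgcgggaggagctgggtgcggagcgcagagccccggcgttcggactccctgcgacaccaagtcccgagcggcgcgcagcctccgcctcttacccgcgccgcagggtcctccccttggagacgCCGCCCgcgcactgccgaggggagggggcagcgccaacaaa
Col19a1: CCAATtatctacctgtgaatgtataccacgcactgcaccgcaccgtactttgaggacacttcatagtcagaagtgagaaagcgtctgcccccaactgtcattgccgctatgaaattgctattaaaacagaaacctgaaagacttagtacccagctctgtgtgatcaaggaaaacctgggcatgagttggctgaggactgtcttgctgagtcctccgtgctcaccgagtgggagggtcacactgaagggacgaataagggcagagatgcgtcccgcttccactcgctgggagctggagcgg

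The Lamb2 window held none of the 3 motifs and, at 44.0% G and C, had the lowest content among the 37 windows of the set. Lamb1 had 2 GC boxes and 1 CCAAT box at 64.0% G and C, Lamc3 had 1 GC box at 65.0%, Col4a1 had 1 GC box and 1 CCAAT box at 74.0%, and Col19a1 had 1 CCAAT box at 52.0%. Over the 37 windows (1 per gene and region, at the most upstream TSS inside the region), the median content was 62.3%, and it was 61.0% over the 14305 windows of all protein-coding genes with a region. The median ratio of observed to expected CpG was 0.592 in the set and 0.755 over all windows. GC boxes were present in 67.6% of the windows of the set and 65.0% of all, CCAAT boxes in 32.4% and 37.1%, and TATA boxes in 5.41% and 6.18%. A CCAAT box was present in 7 of the 11 windows whose region was called higher in Camk2a H2B-FLAG tChIP-Seq, in 2 of the 12 called lower and in 3 of the 14 not called. These are descriptions of letters in a window, and no test was run on them.

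The collagen and laminin regions were narrow and held few reads. Their median width was 1300 bp, against 2060 bp for regions with any annotated TSS, coding or not, and they ran from 130 bp at Col1a1 to 3723 bp at Lamc1. The median level per kb of region was 9.65 CPM in Rosa H2B-FLAG single ChIP-Seq and 11.1 CPM in Camk2a H2B-FLAG single ChIP-Seq, where all protein-coding TSS regions had medians of 29.7 and 29.4. In tChIP-Seq the set's medians per kb were 16.8 CPM in Rosa H2B-FLAG and 16.6 CPM in Camk2a H2B-FLAG, beside 28.2 and 29.5 over all. Of the 35 regions, 2 lay above the median per kb of all in each single ChIP-Seq group, 5 in Rosa H2B-FLAG tChIP-Seq and 4 in Camk2a H2B-FLAG tChIP-Seq. Per kb, Lamc1 was the highest of the set in single ChIP-Seq, at 43.8 CPM in Rosa H2B-FLAG and 40.3 CPM in Camk2a H2B-FLAG, and the shared Col4a1/Col4a2 region was the highest in Camk2a H2B-FLAG tChIP-Seq, at 44.0 CPM. The lowest per kb in that group was Lamb2, at 3.03 CPM, which ranked 7 of 35 in Rosa H2B-FLAG tChIP-Seq, at 26.0 CPM.

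The first comparison asks which collagen and laminin promoters differ in H3K4me3 between the lines in tChIP-Seq. Rosa H2B-FLAG tChIP-Seq did not match Rosa H2B-FLAG single ChIP-Seq in marker levels. Summed excitatory neuron markers ran from 387 to 421 CPM against 833 to 838 CPM, and endothelial markers from 343 to 352 CPM against 252 to 273 CPM. A fall between the lines is therefore relative to Rosa H2B-FLAG tChIP-Seq, not to whole tissue. Of the 35 regions, 21 differed: 10 were higher and 11 lower in Camk2a H2B-FLAG. The share of all regions called in this comparison was 31.6%, with 17.0% higher and 14.6% lower. Laminins were mostly on the lower side, with 2 of 10 higher and 5 lower and a median log2 fold change of -0.59, whereas 8 of 25 collagen regions were higher and 6 lower, with a median of -0.07. The median over all regions was -0.00. Among the 30 members whose mean level was in the lower part of all regions (under 46.6 CPM), 8 were higher and 10 lower, where 12.5% and 19.8% of such regions were. In 14 regions all 3 Camk2a H2B-FLAG libraries lay below all 3 Rosa H2B-FLAG libraries and in 10 all lay above, and 48.4% of all regions separated in either way, 23.6% below and 24.8% above. Because the lysates hold many cell types, fewer cells of a type and less H3K4me3 per cell cannot be told apart in any of these values.

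**Figure D1:**
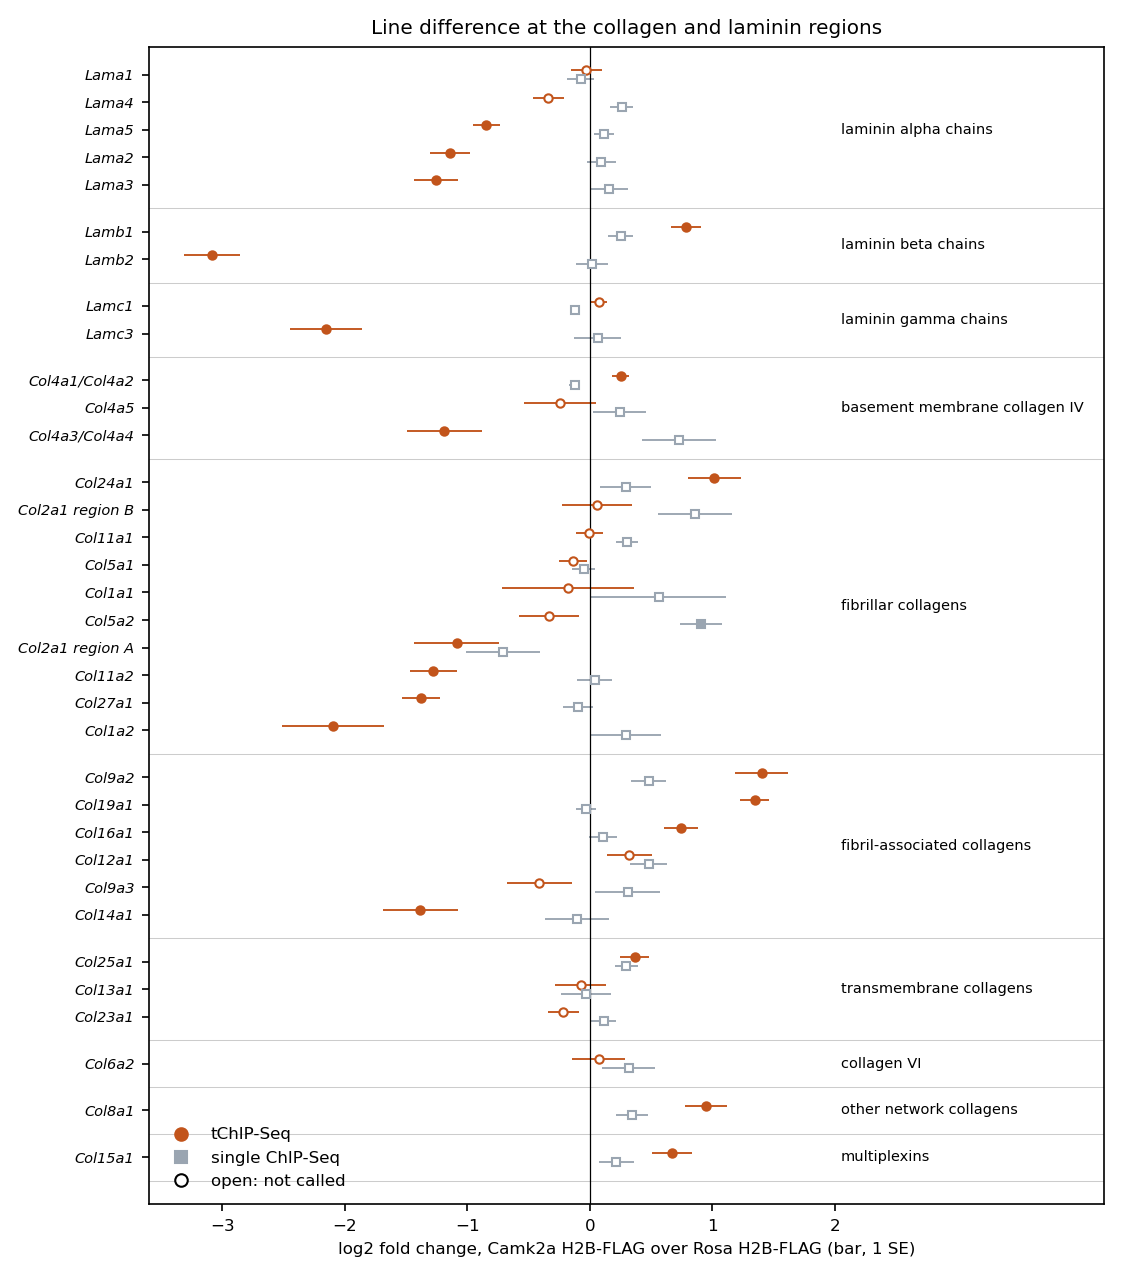
Log2 fold change (horizontal axis) of Camk2a H2B-FLAG over Rosa H2B-FLAG at 34 of the 35 regions (vertical axis, grouped by class), from tChIP-Seq (circles) and single ChIP-Seq (squares), with bars of 1 SE and open symbols for regions not called. The circles run from -3.09 at Lamb2 to 1.40 at Col9a2, and Col5a2 is the filled square.

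The beta chains moved in opposite directions. Lamb2, whose beta 2 chain belongs to the laminins of neuromuscular synapses, kidney glomeruli and blood vessels, has its region at chr9:108381982-108383310. In tChIP-Seq it held 35.0, 29.2 and 39.4 CPM in Rosa H2B-FLAG and 2.95, 3.61 and 5.53 CPM in Camk2a H2B-FLAG, from raw counts of 67, 49 and 60 and of 9, 10 and 15. In single ChIP-Seq it held 15.5, 16.2 and 18.5 CPM in Rosa H2B-FLAG and 18.7, 15.7 and 16.2 CPM in Camk2a H2B-FLAG. The tChIP-Seq groups stood apart on either side of the single ChIP-Seq groups, which overlapped. Lamb2 fell 8.49-fold between the lines in tChIP-Seq (log2 fold change -3.09, SE 0.227, adjusted p = 1.44e-20), which was the lowest log2 fold change of the set and ranked 17949 of 17993 among all regions. The lines differed by 0.02 on the log2 scale at Lamb2 in single ChIP-Seq (SE 0.13).

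Lamb1 encodes the beta 1 chain of many basement membrane laminins, and its region (chr12:31949555-31951932) held 30.3, 38.2 and 36.1 CPM in tChIP-Seq of Rosa H2B-FLAG and 56.4, 58.5 and 63.4 CPM in tChIP-Seq of Camk2a H2B-FLAG. Single ChIP-Seq gave 22.5, 25.2 and 28.3 CPM in Rosa H2B-FLAG and 28.3, 28.2 and 33.9 CPM in Camk2a H2B-FLAG. All 3 Camk2a H2B-FLAG tChIP-Seq libraries lay above the other 9. Lamb1 rose 1.72-fold between the lines in tChIP-Seq (log2 fold change 0.78, SE 0.122, adjusted p = 7.59e-08). Set against each other within a library, per kb of region, Lamb1 was 0.484 to 0.730 times Lamb2 in Rosa H2B-FLAG tChIP-Seq and 6.41 to 10.7 times Lamb2 in Camk2a H2B-FLAG tChIP-Seq. In single ChIP-Seq this ratio was 0.810 to 0.873 in Rosa H2B-FLAG and 0.846 to 1.17 in Camk2a H2B-FLAG. The third beta chain gene, Lamb3, which encodes a chain of epithelial laminin, had no region.

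Lamc3, the gamma 3 chain gene, has its region at chr2:31742775-31743839, where tChIP-Seq gave 15.1, 16.1 and 13.1 CPM in Rosa H2B-FLAG and 4.26, 3.25 and 2.21 CPM in Camk2a H2B-FLAG. Single ChIP-Seq gave 7.53, 6.94 and 7.04 CPM and 7.14, 7.87 and 7.48 CPM in the same order. As at Lamb2, the tChIP-Seq groups lay on either side of the single ChIP-Seq groups. Lamc3 fell 4.45-fold (log2 fold change -2.15, SE 0.294, adjusted p = 1.8e-09), on raw counts of 29, 27 and 20 and of 13, 9 and 6.

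Lamc1, whose gamma 1 chain is part of most laminins, had the widest region of the set. Its tChIP-Seq libraries held 136, 143 and 138 CPM in Rosa H2B-FLAG and 138, 149 and 150 CPM in Camk2a H2B-FLAG, and its single ChIP-Seq libraries 164, 162 and 163 CPM and 164, 151 and 135 CPM. These ranges overlap within each kind of ChIP-Seq. The line difference of Lamc1 in tChIP-Seq was 0.07 on the log2 scale (SE 0.0686, adjusted p = 0.433). Per kb, Lamc1 was 2.53 to 3.00 times Lamc3 in Rosa H2B-FLAG tChIP-Seq and 9.26 to 19.4 times in Camk2a H2B-FLAG tChIP-Seq, while in single ChIP-Seq it was 6.22 to 6.69 and 5.15 to 6.58 times.

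**Figure D2:**
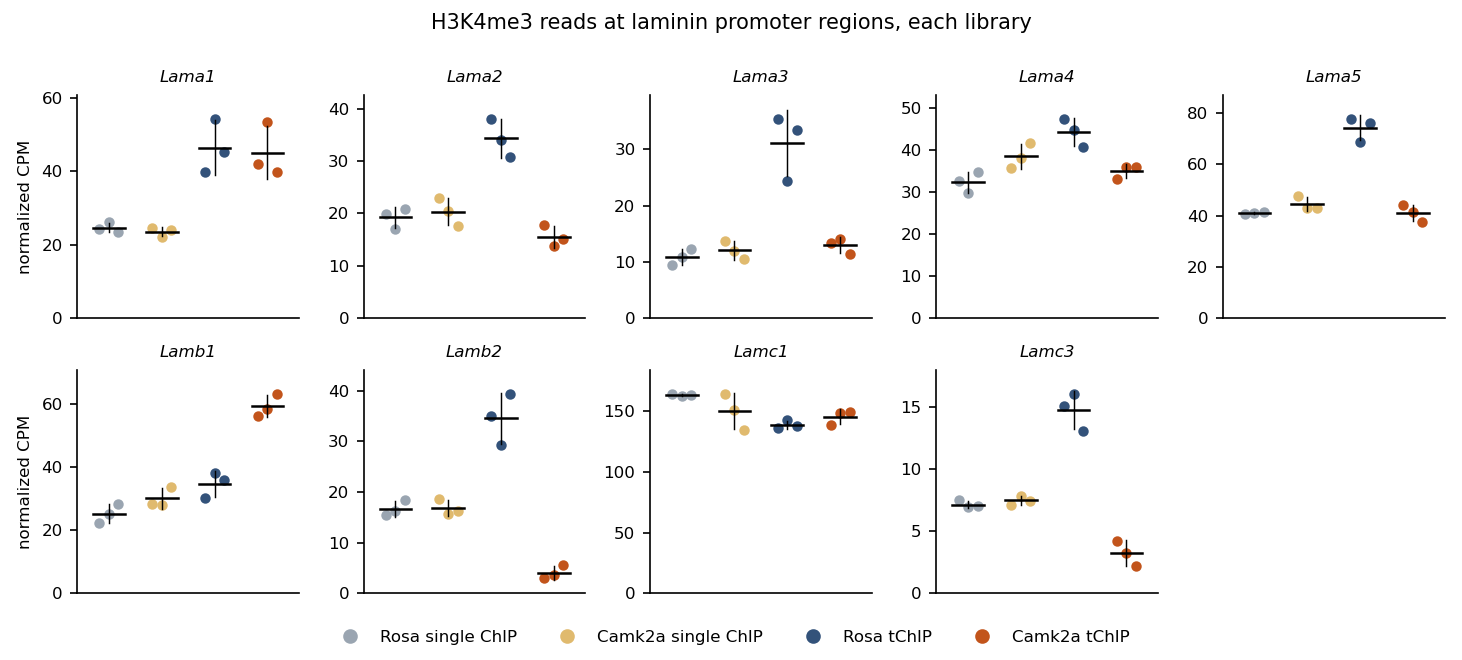
Normalized CPM (vertical axis, from 0) at 9 laminin regions in each library, with 3 points per group, a line at the mean and a bar of 1 SD. At Lamb2, Lamc3, Lama2, Lama3 and Lama5 the Rosa H2B-FLAG tChIP-Seq points are the highest of the panel, and at Lamb1 the Camk2a H2B-FLAG tChIP-Seq points are.

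Among the alpha chains, which carry most of the receptor binding, 3 of 5 fell and the other 2 were not called. Of all regions, 14.6% were lower and 17.0% higher in this comparison. Lama2, the alpha chain whose loss causes a congenital muscular dystrophy, held 38.1, 34.0 and 30.8 CPM in tChIP-Seq of Rosa H2B-FLAG and 17.7, 13.7 and 15.1 CPM in tChIP-Seq of Camk2a H2B-FLAG at chr10:27335038-27336896. In single ChIP-Seq it held 20.0, 17.0 and 20.8 CPM and 22.9, 20.5 and 17.7 CPM. The Rosa H2B-FLAG tChIP-Seq libraries were the highest of the 12, and the line difference was 2.20-fold (log2 fold change -1.14, SE 0.166, adjusted p = 1.13e-08). Lama3, the alpha chain of epithelial laminin, held 35.5, 24.5 and 33.5 CPM in tChIP-Seq of Rosa H2B-FLAG and 13.5, 14.1 and 11.4 CPM in tChIP-Seq of Camk2a H2B-FLAG. Its 6 single ChIP-Seq libraries lay between 9.41 and 13.8 CPM, a range that holds 2 of the 3 Camk2a H2B-FLAG tChIP-Seq values. Lama3 fell 2.39-fold (log2 fold change -1.26, SE 0.179, adjusted p = 6.86e-09).

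Lama5 and Lama4 encode the alpha chains of vascular basement membranes. Lama5 went from 74.1 ± 4.88 CPM in tChIP-Seq of Rosa H2B-FLAG to 41.0 ± 3.22 CPM in tChIP-Seq of Camk2a H2B-FLAG (SD, n = 3 each), a 1.80-fold fall (log2 fold change -0.85, SE 0.108, adjusted p = 1.98e-10). For Lama4 the means were 44.3 ± 3.42 and 35.1 ± 1.71 CPM (SD, n = 3 each), the libraries did not overlap, and the log2 fold change of -0.34 had an adjusted p of 0.0261 and was not called. Lama1, the alpha chain of the early embryo, had means of 46.4 ± 7.37 and 45.1 ± 7.31 CPM (SD, n = 3 each) and a log2 fold change of -0.03 (SE 0.126).

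Collagen IV gave 3 regions for 5 genes. Col4a1 and Col4a2, whose chains form the collagen IV of most basement membranes, have starts 21 bp apart inside chr8:11311036-11314355. They are transcribed in opposite directions, and their annotated 5′ ends overlap. The region held 121, 119 and 131 CPM in tChIP-Seq of Rosa H2B-FLAG and 143, 145 and 150 CPM in tChIP-Seq of Camk2a H2B-FLAG, and 145, 139 and 141 CPM and 132, 125 and 135 CPM in single ChIP-Seq. The tChIP-Seq groups did not overlap, and the difference was 1.19-fold (log2 fold change 0.25, SE 0.0705, adjusted p = 0.00238). This small rise was called in 8 of 13 alternative analyses, with log2 fold changes from 0.18 to 0.29, and the call was lost on leaving out Rosa H2B-FLAG replicate 1, Rosa H2B-FLAG replicate 2 or Camk2a H2B-FLAG replicate 3.

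Col4a3 and Col4a4, with Col4a5 the chains of the glomerular basement membrane, share chr1:82583179-82583773, where their starts lie 72 bp apart. This region went the other way, with 8.87, 11.3 and 14.4 CPM in tChIP-Seq of Rosa H2B-FLAG and 3.28, 3.25 and 8.47 CPM in tChIP-Seq of Camk2a H2B-FLAG. Single ChIP-Seq gave 2.17, 2.27 and 1.80 CPM and 3.45, 3.34 and 3.74 CPM. Replicate 3 of Camk2a H2B-FLAG tChIP-Seq lay close to the lowest Rosa H2B-FLAG library. The region fell 2.28-fold (log2 fold change -1.19, SE 0.305, adjusted p = 0.000869), and without that replicate the log2 fold change was -1.78. Leaving out Rosa H2B-FLAG replicate 3 (-1.01) or Camk2a H2B-FLAG replicate 2 (-0.98), or testing with DESeq2 (-1.21, adjusted p = 0.0114), ended the call. Col4a5 had 7.82 ± 0.974 and 6.55 ± 0.317 CPM in the tChIP-Seq groups (SD, n = 3 each) and was not called in any of the 5 comparisons, and Col4a6 had no region. Within a library and per kb, Col4a1/Col4a2 was 1.63 to 2.45 times Col4a3/Col4a4 in Rosa H2B-FLAG tChIP-Seq, 3.18 to 8.01 times in Camk2a H2B-FLAG tChIP-Seq, and 11.0 to 14.1 and 6.46 to 6.89 times in the single ChIP-Seq groups.

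Fibrillar collagens had 10 regions for 9 of 11 genes, of which 4 fell and 1 rose in Camk2a H2B-FLAG tChIP-Seq. The shares of all regions were 14.6% lower and 17.0% higher. Col1a2, the alpha 2 chain of the collagen of bone, skin and meninges, held 8.87, 7.16 and 5.25 CPM in tChIP-Seq of Rosa H2B-FLAG and 1.31, 1.80 and 1.84 CPM in tChIP-Seq of Camk2a H2B-FLAG at chr6:4455395-4455894. In single ChIP-Seq it held 3.04, 2.99 and 2.45 CPM and 3.45, 2.86 and 4.24 CPM. The Camk2a H2B-FLAG tChIP-Seq libraries were the lowest of the 12, and the fall was 4.28-fold (log2 fold change -2.10, SE 0.418, adjusted p = 1.85e-05), on raw counts of 17, 12 and 8 against 4, 5 and 5. The region holds later starts of the gene, the nearest of them 679 bp from its annotated 5′ end.

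Col27a1, a fibrillar collagen of cartilage, held 44.9, 39.4 and 44.6 CPM in tChIP-Seq of Rosa H2B-FLAG and 15.4, 18.8 and 15.1 CPM in tChIP-Seq of Camk2a H2B-FLAG (chr4:62876136-62877358), beside 18.3, 22.0 and 18.2 CPM and 19.2, 19.6 and 16.4 CPM in single ChIP-Seq. Here the Rosa H2B-FLAG tChIP-Seq libraries stood above all others, by 2.60-fold over Camk2a H2B-FLAG tChIP-Seq (log2 fold change -1.38, SE 0.154, adjusted p = 1.73e-12). Col11a2, which encodes a chain of the thin fibrils of cartilage, held 27.1, 25.0 and 29.5 CPM and 13.8, 7.94 and 11.4 CPM in the same tChIP-Seq groups (chr17:34175614-34177382), and 16.2, 13.0 and 12.6 CPM and 15.3, 15.5 and 12.2 CPM in single ChIP-Seq. It too was highest in Rosa H2B-FLAG tChIP-Seq and fell 2.42-fold between the lines (log2 fold change -1.28, SE 0.193, adjusted p = 3.45e-08).

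Col24a1 was the fibrillar gene that rose. Its region (chr3:144955300-144956599) held 13.0, 10.1 and 6.56 CPM in tChIP-Seq of Rosa H2B-FLAG and 20.7, 18.8 and 22.1 CPM in tChIP-Seq of Camk2a H2B-FLAG, with 4.92, 5.26 and 7.20 CPM and 8.37, 5.25 and 7.48 CPM in single ChIP-Seq. The Camk2a H2B-FLAG tChIP-Seq libraries lay above the other 9, and the rise was 2.02-fold (log2 fold change 1.02, SE 0.217, adjusted p = 6.29e-05). Col2a1, the main cartilage collagen, has region B at the 5′ end of the gene, where the lines differed by 0.06 on the log2 scale (SE 0.284). Its region A holds a start annotated for a processed transcript, 2837 bp from that end. Region A fell 2.13-fold (log2 fold change -1.09, SE 0.344, adjusted p = 0.00746), from 7.87 ± 2.02 to 3.67 ± 0.934 CPM (SD, n = 3 each). That call held in 7 of 12 alternative analyses and was lost without Rosa H2B-FLAG replicate 2 or 3 or Camk2a H2B-FLAG replicate 1 or 2, with log2 fold changes from -1.25 to -0.86 over the alternatives. Col5a1 and Col5a2, whose chains limit fibril width, had log2 fold changes of -0.14 and -0.33, and Col11a1, the partner chain of Col11a2, had -0.00. The Col5a1 region also holds the start of 2810430I11Rik, a gene without protein product. Col1a1, the partner of Col1a2, held between 1 and 8 raw counts per library, and its log2 fold change of -0.18 (SE 0.538) was not detectable at this depth. No region was found for Col3a1 and Col5a3.

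Fibril-associated collagens gave 3 regions that rose and 1 that fell out of 6, where 17.0% of all regions were higher and 14.6% lower. Col19a1, whose collagen XIX is made by some neurons of the forebrain, held 26.1, 32.2 and 34.1 CPM in tChIP-Seq of Rosa H2B-FLAG and 81.0, 74.3 and 75.9 CPM in tChIP-Seq of Camk2a H2B-FLAG (chr1:24592687-24594853). In single ChIP-Seq it held 44.6, 41.5 and 41.7 CPM and 40.1, 46.5 and 38.1 CPM. The tChIP-Seq groups again lay on either side of the single ChIP-Seq groups, in the reverse order to Lamb2. Col19a1 rose 2.54-fold (log2 fold change 1.35, SE 0.119, adjusted p = 8.29e-17).

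Col9a2, which encodes a chain of collagen IX of cartilage, held 7.83, 6.56 and 15.1 CPM in tChIP-Seq of Rosa H2B-FLAG and 28.2, 19.8 and 27.6 CPM in tChIP-Seq of Camk2a H2B-FLAG (chr4:120724902-120726339), with 11.6, 10.6 and 11.5 CPM and 14.0, 15.7 and 17.2 CPM in single ChIP-Seq. The groups in tChIP-Seq did not overlap, although replicate 3 of Rosa H2B-FLAG lay apart from the other 2, and the rise was 2.64-fold (log2 fold change 1.40, SE 0.219, adjusted p = 8.5e-08) and 1.80 on the log2 scale without that replicate. The region holds a start annotated for a processed transcript, which lies 13614 bp from the 5′ end of the gene. Col16a1, a collagen of the skin and vessel wall, held 26.6, 23.9 and 24.9 CPM and 41.0, 45.1 and 40.2 CPM in the tChIP-Seq groups (chr4:129724389-129725662), and 20.1, 19.5 and 19.8 CPM and 19.7, 21.2 and 23.2 CPM in single ChIP-Seq. Its Camk2a H2B-FLAG tChIP-Seq libraries were the highest of the 12, at a 1.67-fold rise (log2 fold change 0.74, SE 0.142, adjusted p = 8.52e-06). The region also holds the start of Gm12963, a gene without protein product, so its reads cannot be assigned to either gene.

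Col14a1, whose collagen XIV binds fibrils of skin and tendon, fell. Its region (chr15:55139085-55139745) held 8.35, 13.1 and 12.5 CPM in tChIP-Seq of Rosa H2B-FLAG and 4.92, 2.89 and 4.79 CPM in tChIP-Seq of Camk2a H2B-FLAG, with 3.62, 3.47 and 5.24 CPM and 2.71, 4.77 and 3.74 CPM in single ChIP-Seq. Rosa H2B-FLAG tChIP-Seq stood above the other groups, and the fall was 2.61-fold (log2 fold change -1.38, SE 0.304, adjusted p = 9.58e-05). Col12a1, a related collagen of tendon, and Col9a3, the partner of Col9a2, had log2 fold changes of 0.32 (SE 0.188) and -0.41 (SE 0.266) and were not called, and Col9a1, Col20a1 and Col22a1 had no region.

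Of the remaining classes, 3 regions rose, in a comparison where 17.0% of all regions were higher. Col8a1, which encodes a short-chain collagen of vessel walls and of the cornea, held 14.6, 18.5 and 15.1 CPM in tChIP-Seq of Rosa H2B-FLAG and 29.5, 31.0 and 32.0 CPM in tChIP-Seq of Camk2a H2B-FLAG (chr16:57754555-57755999), with 13.6, 15.3 and 14.2 CPM and 16.2, 21.2 and 17.4 CPM in single ChIP-Seq. These Camk2a H2B-FLAG tChIP-Seq values exceeded all others, by 1.93-fold over Rosa H2B-FLAG tChIP-Seq (log2 fold change 0.95, SE 0.172, adjusted p = 3.03e-06). Col15a1, a multiplexin of basement membrane zones, held 23.0, 20.3 and 20.3 CPM and 37.4, 26.3 and 37.2 CPM in the tChIP-Seq groups (chr4:47220682-47221945), and 12.5, 11.4 and 12.8 CPM and 13.3, 13.8 and 15.2 CPM in single ChIP-Seq. The tChIP-Seq libraries all lay above the single ChIP-Seq libraries, and the line difference was 1.59-fold (log2 fold change 0.67, SE 0.163, adjusted p = 0.000429). Its region holds the start of Gm12426, a gene without protein product, as well.

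The transmembrane collagen Col25a1, the precursor of a collagen found in amyloid plaques and made by neurons, went from 40.6 ± 1.61 to 52.1 ± 1.77 CPM (SD, n = 3 each), a 1.29-fold rise (log2 fold change 0.37, SE 0.119, adjusted p = 0.00913) close to the threshold, and the call held in 2 of 13 alternative analyses, not in those that left out any of the 6 libraries. Col13a1, a transmembrane collagen of the neuromuscular junction, Col23a1 and Col6a2, a chain of the beaded filaments of collagen VI, had log2 fold changes of -0.07, -0.22 and 0.07 and were not called. Genes of these classes without a region were Col6a1, Col6a3, Col6a4, Col6a5, Col6a6, Col7a1, Col8a2, Col10a1, Col17a1, Col18a1 and Col28a1. A gene without a region has no count here, and its H3K4me3 was not measured in these values.

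**Figure D3:**
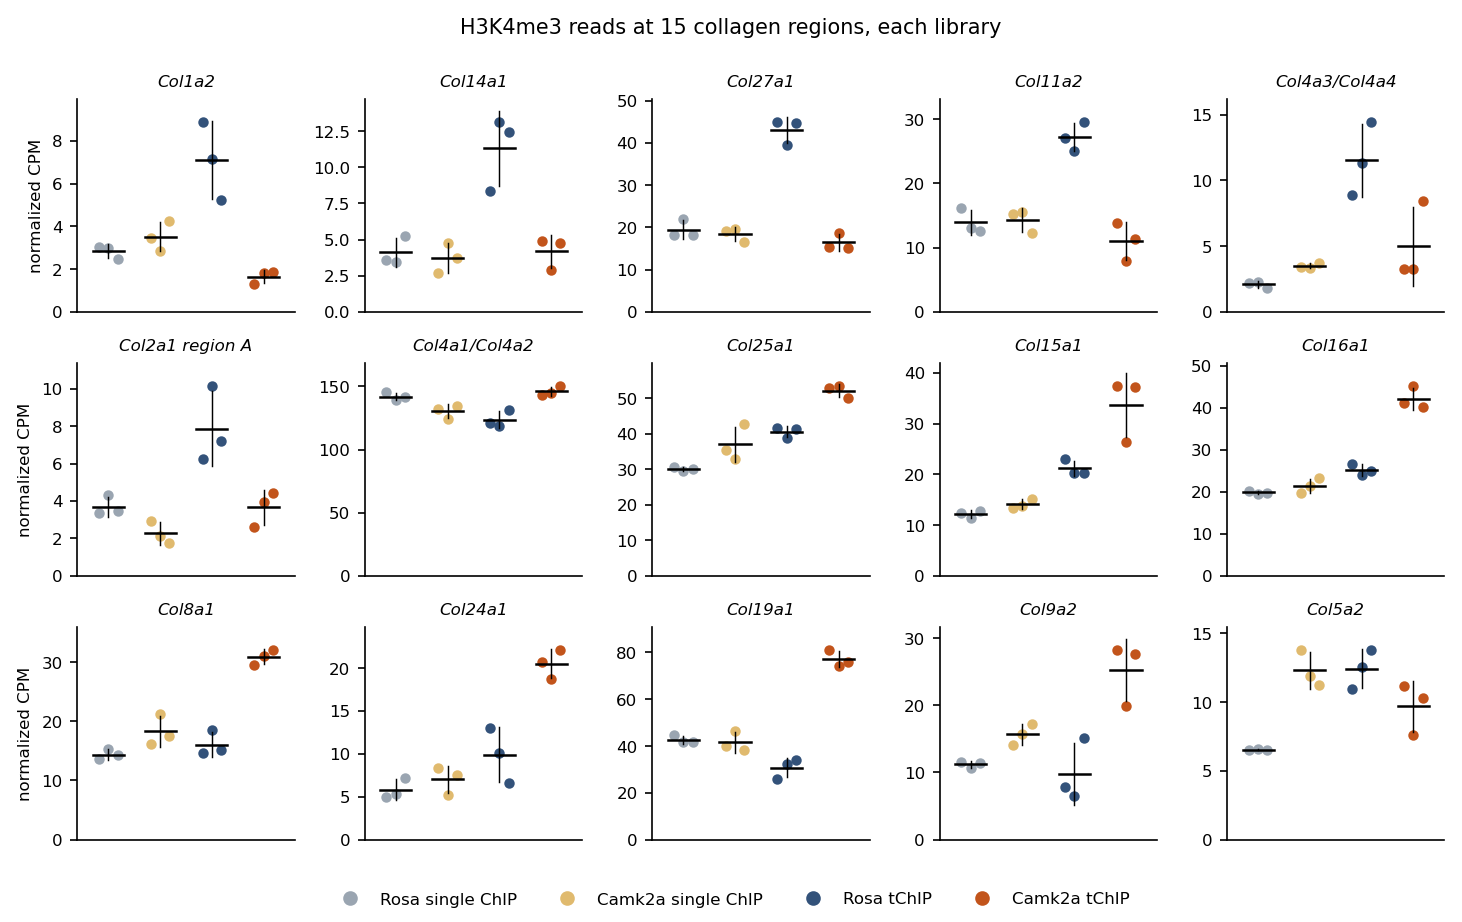
Normalized CPM (vertical axis, from 0) in each library at the 14 collagen regions called in tChIP-Seq between the lines and at Col5a2, with 3 points per group, a line at the mean and a bar of 1 SD. The Camk2a H2B-FLAG tChIP-Seq points are the highest of the panel at Col19a1, Col24a1, Col8a1 and Col16a1, and the lowest at Col1a2.

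The regions nearest to Col6a1 and Col18a1 lie within 1000 bp of a start without overlapping it. Near Col6a1 the means were 10.1 ± 1.54 CPM in tChIP-Seq of Rosa H2B-FLAG and 16.0 ± 2.14 CPM in tChIP-Seq of Camk2a H2B-FLAG (SD, n = 3 each), and near Col18a1 they were 21.5 ± 1.55 and 16.8 ± 2.93 CPM. Of the 35 regions in the set, 27 hold the annotated 5′ end of their gene, and the other 8 (Col1a1, Col1a2, Col2a1 region A, Col5a2, Col9a2, Col9a3, Col13a1 and Col27a1) hold a later start, 219 to 13614 bp away.

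Genes that work with collagens and laminins were read from lists of their receptors, of other matrix proteins and of the enzymes that make and process procollagen. In Camk2a H2B-FLAG tChIP-Seq against Rosa H2B-FLAG tChIP-Seq, 14.6% of all regions were lower and 17.0% higher. Among receptors, 7 of 13 regions fell and 0 rose (median log2 fold change -0.42). Ddr2, a receptor tyrosine kinase for fibrillar collagen, fell by 1.87 on the log2 scale (adjusted p = 1.18e-06, edgeR quasi-likelihood test), and Bcam, a receptor for laminin alpha 5, fell by 1.48 (adjusted p = 4.41e-13). Among other matrix partners, 6 of 9 regions fell and 1 rose (median -0.58), with Sparc, a collagen-binding glycoprotein, lower by 4.76-fold (adjusted p = 1.2e-21) and Nid2, a nidogen that bridges laminin and collagen IV, lower by 3.12-fold (adjusted p = 8.57e-15). Agrn, a heparan sulfate proteoglycan that organizes synapses, had the region that rose, 1.97-fold (adjusted p = 3.17e-16), and another that fell, 1.34-fold (adjusted p = 1.79e-05).

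In the collagen biosynthesis list 1 of 15 regions was higher and 2 were lower (median log2 fold change -0.10), in a comparison where 17.0% of all regions were higher and 14.6% lower. Serpinh1, the collagen-specific chaperone of the endoplasmic reticulum, was the larger of the falls, from 78.1 ± 14.5 to 7.29 ± 2.21 CPM (SD, n = 3 each), or 10.5-fold (adjusted p = 3.71e-30 in edgeR). Plod1, a lysyl hydroxylase, fell 3.03-fold (adjusted p = 2.93e-13), and P4ha1, a catalytic chain of prolyl hydroxylase, rose 1.28-fold (adjusted p = 0.000102). Of the processing and cross-linking enzymes, 2 of 11 regions rose and 2 fell (median 0.05), which is near the same shares of all regions. Loxl3 and Lox, amine oxidases that cross-link collagen, fell 2.99-fold (adjusted p = 6.17e-15) and 1.94-fold (adjusted p = 0.00921), while Pcolce2, an enhancer of procollagen cleavage, rose 1.49-fold (adjusted p = 9.31e-05) and Adamts3, a procollagen peptidase, rose 1.33-fold (adjusted p = 2.42e-05).

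Markers of cell types differed between the same libraries, where 17.0% of all regions were higher and 14.6% lower. Of the endothelial markers, 8 of 9 had a region, all 8 were lower in Camk2a H2B-FLAG tChIP-Seq, and their summed level was 101 to 108 CPM there, 343 to 352 CPM in tChIP-Seq of Rosa H2B-FLAG, and 252 to 273 CPM and 266 to 267 CPM in Rosa and Camk2a H2B-FLAG single ChIP-Seq. Of 10 mural and fibroblast markers 4 had a region, 3 were lower, and the sums were 67.5 to 71.5, 196 to 234, 130 to 137 and 120 to 143 CPM in the same order. Astrocyte markers had 5 of 6 regions lower and 1 higher (313 to 332, 475 to 514, 441 to 458 and 429 to 471 CPM). Oligodendrocyte lineage markers had 5 of 7 regions lower and 1 higher (194 to 209, 271 to 310, 339 to 354 and 305 to 315 CPM), and inhibitory neuron markers had 4 of 6 lower (75.5 to 81.7, 140 to 162, 110 to 114 and 111 to 121 CPM). All 6 excitatory neuron regions were higher, at 1055 to 1134 CPM against 387 to 421 CPM in tChIP-Seq of Rosa H2B-FLAG. Their sums in single ChIP-Seq were 833 to 838 CPM in Rosa H2B-FLAG and 902 to 933 CPM in Camk2a H2B-FLAG. Between these single ChIP-Seq groups 1 of the 6 regions was called higher, where 0.928% of all regions were. It was Camk2a, at 174 ± 2.42 and 250 ± 12.1 CPM (SD, n = 3 each), and the median log2 fold change of the 6 was -0.00. No marker region had 0 counts in any library, and none of the 7 microglia markers had a region. The part that these markers' cell types have in the collagen and laminin values was not tested.

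**Figure D4:**
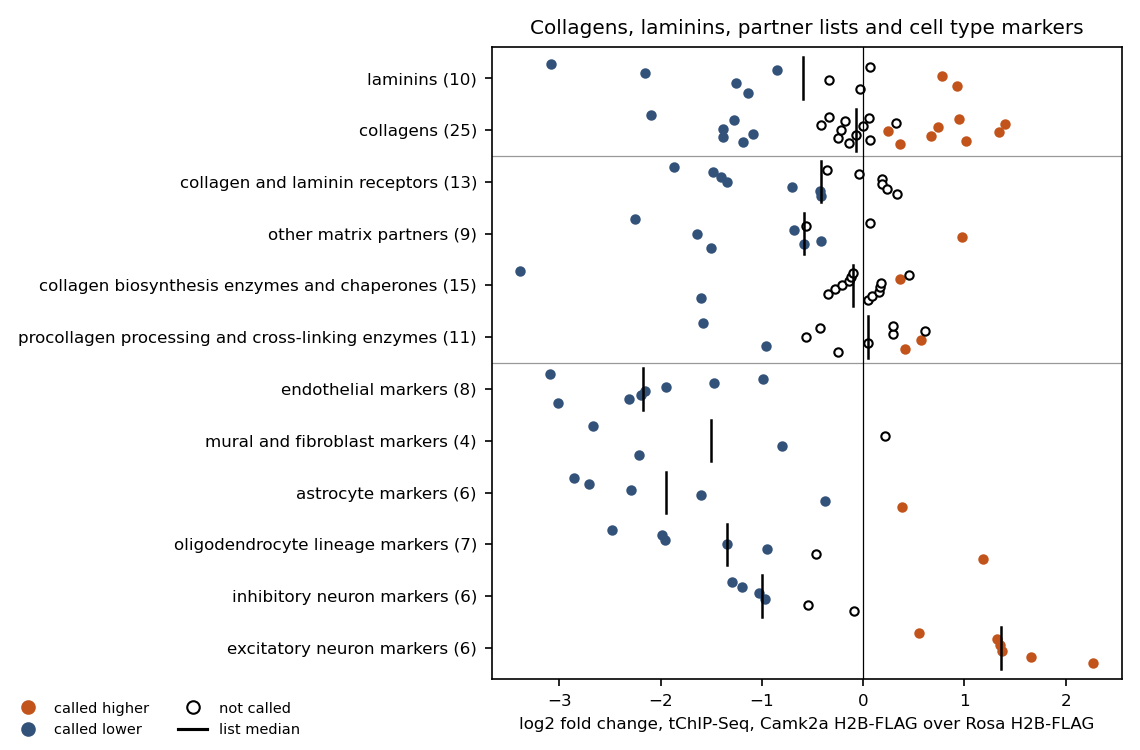
Log2 fold change of Camk2a H2B-FLAG over Rosa H2B-FLAG in tChIP-Seq (horizontal axis) for each region of the laminins, the collagens, the 4 partner lists and the 6 cell type marker lists with a region (vertical axis, number of regions in brackets), with filled points for called regions, open points for regions not called and a bar at each median. The laminin median of -0.59 lies beside that of the other matrix partners, -0.58, and the excitatory neuron markers all lie above 0.

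Single ChIP-Seq compares the lines in whole tissue. Of the 35 regions 1 was called higher, Col5a2, where 2.15% of all regions were called in this comparison, 0.928% higher and 1.22% lower. With edgeR 0 regions were called lower, and 3 with a negative log2 fold change had an unadjusted p under 0.05, as did 10 with a positive log2 fold change. Over all 17993 regions, 3957 had an unadjusted p under 0.05 in the same comparison. The Wald test of DESeq2 called 0 lower and 0 higher, but it gave an adjusted p to 2 of the 35 regions and to Col5a2 gave none. Col5a2 (chr1:45558986-45560091) held 6.52, 6.58 and 6.54 CPM in Rosa H2B-FLAG and 13.8, 11.9 and 11.2 CPM in Camk2a H2B-FLAG single ChIP-Seq, and 11.0, 12.5 and 13.8 CPM and 11.2, 7.58 and 10.3 CPM in tChIP-Seq. The Rosa H2B-FLAG single ChIP-Seq libraries were the lowest of the 12, and the difference was 1.87-fold (log2 fold change 0.91, SE 0.172, adjusted p = 0.00013). With single ChIP-Seq thinned to the totals of tChIP-Seq the log2 fold change was 0.76 and the adjusted p was 0.172. The median log2 fold change of the 35 regions was 0.19 in single ChIP-Seq, where that of all regions was 0.00. Among regions under 46.6 CPM on average, which hold 30 of the 35, the median of all was 0.11 and that of the 30 was 0.23.

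Comparing tChIP-Seq with single ChIP-Seq within a line asks what the FLAG precipitation changed. These comparisons share libraries with the comparisons of the lines, so their values are given side by side. The paper found sites biased between the kinds of ChIP-Seq and therefore mainly tested the lines against each other in tChIP-Seq. It proposes selection of longer DNA, the FLAG tag and the form or amount of H2B as possible sources. These sources were not tested here. In Rosa H2B-FLAG, 27 of the 35 regions were higher and 3 lower in tChIP-Seq, in a comparison where 47.2% of all regions were called, 24.7% higher and 22.5% lower. The median log2 fold change was 0.87, against -0.00 over all regions. Because the regions are peaks called in these data, a region low in single ChIP-Seq may be listed through its tChIP-Seq peak. Its rise would then be favoured by that selection. Which kind of ChIP-Seq gave each peak is not stated in the sources used here. Over all regions, those of low level were called higher more often, and the part of level in the members' values was not tested. Of the 35, 30 lay among the 8996 regions of lower mean CPM (under 46.6 CPM, a split made after the data were seen). Of these 30, 25 were higher in Rosa H2B-FLAG tChIP-Seq (median log2 fold change 0.91), and of all 8996 lower regions 41.6% were (median 0.48).

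Col4a3/Col4a4 had the largest rise in this line, 5.37-fold (log2 fold change 2.42, SE 0.293, adjusted p = 2.7e-15). All 10 fibrillar regions, all 5 laminin alpha chains, all 3 transmembrane collagens and both beta chains were higher, Lamb2 by 1.06 (SE 0.143) and Lamb1 by 0.47 (SE 0.132) on the log2 scale. Some of these calls rested on single libraries. Col1a1, at 1 to 8 raw counts per library, was called in 9 of 13 alternative analyses, with log2 fold changes from 1.13 to 2.48, and lost its call without single ChIP-Seq replicate 1 or tChIP-Seq replicate 2. Col24a1 was called in 9 of 14 and lost its call without tChIP-Seq replicate 1 or 2 or single ChIP-Seq replicate 2 (log2 fold changes from 0.57 to 1.04). Lamb1, Col25a1 and Col2a1 region A each kept the call in 12 of 14, and Col1a2 in 12 of 13. The call of Lamb1 was lost without tChIP-Seq replicate 2 or 3, that of Col2a1 region A without replicate 2, and those of Col25a1 and Col1a2 without replicate 1. Thinned single ChIP-Seq counts ended the calls of Col1a1, Col24a1, Col25a1, Col2a1 region A, Col5a2 and Col12a1, and, among the lower regions, that of Col4a1/Col4a2. The 3 lower regions were Col19a1 (log2 fold change -0.47, SE 0.124, adjusted p = 0.000431), Lamc1 (-0.22, SE 0.0599, adjusted p = 0.000638) and Col4a1/Col4a2 (-0.19, SE 0.0638, adjusted p = 0.00605). None of these 3 stayed called on leaving out Rosa H2B-FLAG tChIP-Seq replicate 1, which gave -0.35, -0.21 and -0.18 on the log2 scale, and only Col19a1 stayed called when libraries were scaled by their totals alone.

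Marker regions moved in the same comparison, in which 24.7% of all regions were higher and 22.5% lower. All 6 excitatory neuron regions were lower in Rosa H2B-FLAG tChIP-Seq than in its single ChIP-Seq. Of the others, 5 of 8 endothelial, 3 of 4 mural and fibroblast and 3 of 6 inhibitory neuron regions were higher and 0 lower. Astrocyte markers had 5 of 6 regions higher and 1 lower. Oligodendrocyte lineage markers went more the other way, with 1 of 7 regions higher and 3 lower. The part of these cell types in the collagen and laminin values was not tested.

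In Camk2a H2B-FLAG, 19 regions were higher and 2 lower in tChIP-Seq, in a comparison where 47.9% of all regions were called, 25.3% higher and 22.6% lower. The median log2 fold change was 0.50, against -0.01 over all regions. Among the 30 regions of lower level 16 were higher, and of all lower regions 32.4% were. Col24a1 rose most (log2 fold change 1.54, SE 0.189, adjusted p = 5.52e-13). The lower regions were Lamb2 (log2 fold change -2.07, SE 0.235, adjusted p = 9.63e-15) and Lamc3 (-1.18, SE 0.295, adjusted p = 0.000265). Of the fibrillar regions 4 of 10 were higher, of the laminin alpha chains 1 of 5 (Lama1), and of the fibril-associated collagens 5 of 6.

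The 3 comparisons that involve tChIP-Seq sort the regions into a few patterns. Lamb2 and Lamc3 were above single ChIP-Seq in Rosa H2B-FLAG tChIP-Seq, below it in Camk2a H2B-FLAG tChIP-Seq and lower in the latter than in the former. Another 9 of the regions that fell between the lines (Lama2, Lama3, Lama5, Col1a2, Col2a1 region A, Col4a3/Col4a4, Col11a2, Col14a1 and Col27a1) were above single ChIP-Seq in Rosa H2B-FLAG and not called against it in Camk2a H2B-FLAG. Col19a1 was below single ChIP-Seq in Rosa H2B-FLAG and above it in Camk2a H2B-FLAG. Col4a1/Col4a2 had the same calls by small margins, of which that in Rosa H2B-FLAG held in 7 of 14 alternative analyses and that in Camk2a H2B-FLAG (log2 fold change 0.16, adjusted p = 0.00935) in 5 of 14. The latter was lost with the replicate block, with DESeq2 size factors or its Wald test, with thinned single ChIP-Seq counts, and without any 1 of Camk2a H2B-FLAG tChIP-Seq replicates 1, 2 and 3 or single ChIP-Seq replicates 1 and 2. Log2 fold changes in Camk2a H2B-FLAG ran from 0.13 to 0.19 over the 14. Col8a1, Col9a2 and Col16a1 were called above it in Camk2a H2B-FLAG and not in Rosa H2B-FLAG, and Col15a1, Col24a1, Col25a1 and Lamb1 were above it in both lines. A further 9 regions, among them Lama1, Col5a1, Col11a1 and Col13a1, were above single ChIP-Seq in both lines and not called between the lines.

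**Figure D5:**
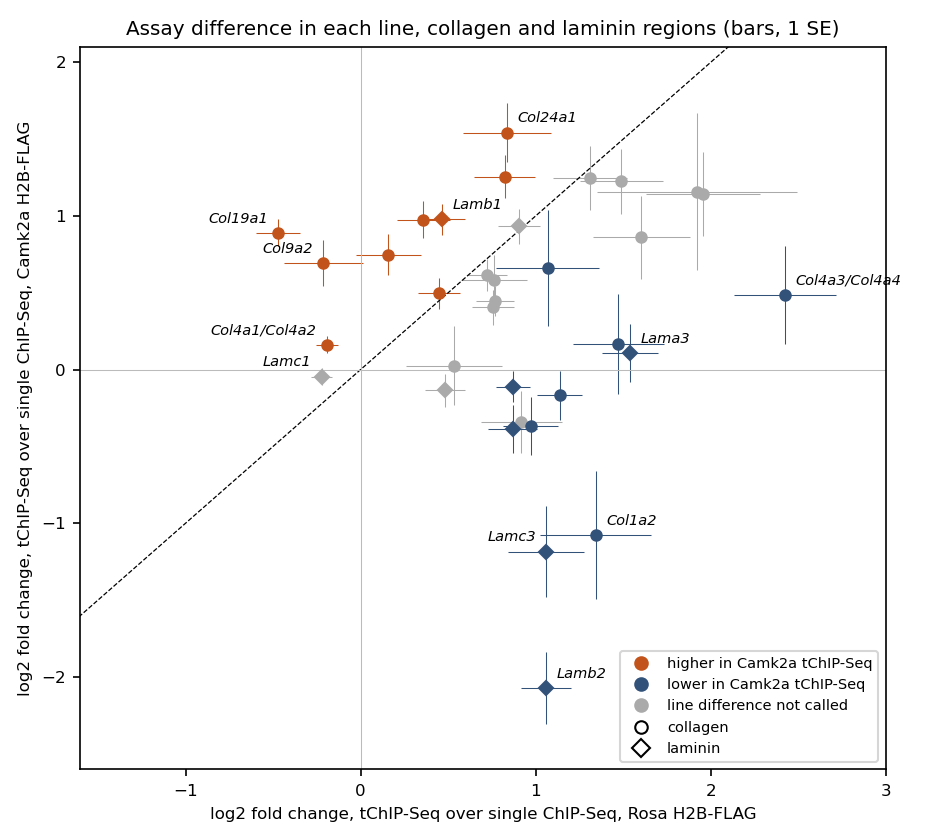
Log2 fold change of tChIP-Seq over single ChIP-Seq in Rosa H2B-FLAG (horizontal axis) and in Camk2a H2B-FLAG (vertical axis) at 34 of the 35 regions, with bars of 1 SE, colours for the call between the lines in tChIP-Seq, diamonds for laminins and circles for collagens. Lamb2 lies at 1.06 and -2.07, Col19a1 at -0.47 and 0.89, and points on the dashed line changed equally in both lines.

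Whether the line difference itself differed between tChIP-Seq and single ChIP-Seq was tested as an interaction over all 12 libraries. It was called at 17 of the 35 regions, where 26.9% of all regions were called. In 5 regions the tChIP-Seq difference was the higher (13.7% of all regions) and in 12 the lower (13.2%). The median interaction was -0.34 on the log2 scale for the 35 regions and -0.00 for all regions. Among the 30 members of lower level 3 were positive and 11 negative (median -0.45), and of all 8996 lower regions 6.34% were positive and 20.0% negative (median -0.19). The interaction was largest in size at Lamb2, -3.12 (SE 0.271, adjusted p = 1.16e-23, edgeR quasi-likelihood test), and in the other direction at Col19a1, 1.37 (SE 0.148, adjusted p = 1.39e-16). Of the 11 regions that fell between the lines in tChIP-Seq, Col2a1 region A was the exception whose interaction was not called (-0.39, SE 0.475), and among those that rose, Col8a1, Col15a1, Col24a1 and Col25a1 were not called, with interactions from 0.06 to 0.72.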

How the data were processed

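H3K4me3 reads were examined in 12 of the 24 samples, since the other 12 are input and FLAG libraries that were not analysed here. By the authors' account, reads were trimmed with FASTX Toolkit, those matching repeats under Bowtie2 were discarded, and the remainder was aligned to mm9 by Bowtie. Duplicates were then taken out by SAMtools, MACS gave reproducible peaks, and bedtools counted the reads inside each. The submitters' processing notes name bcl2fastq 1.8.4, Bowtie2 2.1.0, Bowtie 1.0.0, SAMtools 0.1.19 and bedtools 2.17.0. The deposited values are raw counts per region by the authors, without normalization, on the same 17993 regions in every library. How this list was merged is not given in the sources used here. Duplicate removal and the limits of called peaks both bound the count a narrow region can reach.

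Regions were matched to the TSS of GENCODE M1, and window sequences were read from the NCBIM37 (mm9) reference. Groups were taken from the labels. Counts were tested with the quasi-likelihood functions of edgeR 4.0.16 (R 4.3.3), glmQLFit and glmQLFTest, at their defaults after TMM scaling, with no filter and no covariate, on the 6 libraries of each comparison of 2 groups and on all 12 for the interaction, and regions were called at a Benjamini-Hochberg adjusted p under 0.01 over all regions, the threshold the authors used with the DESeq package. An SE is the absolute log2 fold change over the square root of F. CPM values used TMM factors over 12 libraries, so ratios of CPM means can differ slightly from fitted folds. The fit was tested on simulated counts before use. Replicate libraries of a group differed by a chi-square per degree of freedom of 1.03 to 1.09. Total counts ran from 1457261 to 8644574 per library, and counting error is largest for regions with under 10 counts. Pandas 2.3.3, numpy 2.4.6 and matplotlib 3.10.9 were used for summaries and figures.

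The values of 1 region and 1 promoter sequence are not reported here, and the region stays in the counts and medians. Members and lists were chosen with earlier results of these data known. Values in every library are given for 8 called regions a direction in tChIP-Seq, those furthest from 0 on the log2 scale whose groups do not overlap, for each called region in single ChIP-Seq, and for Col4a1, Lama2, Lamb1, Lamb2 and Lamc1, and the largest called member in each direction is named in the other comparisons. Of each partner list, 2 called regions a direction, again those furthest from 0, are named, and of the marker lists Camk2a, Slc17a7 and Cdh5. Alternatives were DESeq2 size factors, library totals, the Wald test of DESeq2 1.42.0, the newer quasi-likelihood form of edgeR, a minimum of 10 counts in every library, thresholds of 0.05 and 0.001, all 12 libraries in 1 fit, a replicate block, thinning of single ChIP-Seq counts, wider and stricter membership, and leaving out each library.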

Additional observations from a re-analysis of the deposited data

Results flagged for a closer look

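The difference between the lines in tChIP-Seq departed from the difference in single ChIP-Seq at 17 collagen and laminin regions, by the interaction term of edgeR's quasi-likelihood fit over 12 libraries at an adjusted p under 0.01. Of all regions 26.9% were called in this test. Values are on the log2 scale and are the line difference (Camk2a H2B-FLAG over Rosa H2B-FLAG) in tChIP-Seq less that in single ChIP-Seq.

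In 12 regions the value was negative. Among laminins it was -3.12 at Lamb2, -2.23 at Lamc3, -1.42 at Lama3, -1.24 at Lama2, -0.97 at Lama5 and -0.61 at Lama4. Among fibrillar collagens it was -2.41 at Col1a2, -1.33 at Col11a2, -1.29 at Col27a1 and -1.25 at Col5a2, and among the others -1.93 at Col4a3/Col4a4 and -1.29 at Col14a1. Col5a2 and Lama4 are in this group although their line difference was not called in tChIP-Seq, and Col5a2 was called higher in single ChIP-Seq.

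In 5 regions the value was positive, at 1.37 for Col19a1, 0.91 for Col9a2, 0.63 for Col16a1, 0.52 for Lamb1 and 0.37 for Col4a1/Col4a2. The calls at Col9a2, Col16a1, Lamb1 and Col14a1 were lost in some alternatives, 5, 5, 8 and 8 of them.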

How the results depend on the processing

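No result changed direction past the threshold under any alternative run. A minimum of 10 counts in every library left 28 of the 35 regions in the comparison of the lines in tChIP-Seq and removed Lamb2, Lamc3, Col1a2, Col14a1, Col2a1 region A and Col4a3/Col4a4 among those called, so that 5 rather than 11 were called lower. It left 0 rather than 2 lower in tChIP-Seq against single ChIP-Seq of Camk2a H2B-FLAG, where Lamb2 and Lamc3 were removed, and 7 rather than 12 negative interactions. With the threshold at 0.05, 5 regions were higher between the lines in single ChIP-Seq and 4 lower in Camk2a H2B-FLAG tChIP-Seq against single ChIP-Seq, and at 0.001 there were 2 positive interactions in place of 5. With DESeq2's Wald test these counts were 0 (2 regions had an adjusted p), 1 and 2. Thinning single ChIP-Seq left 0 regions higher between the lines there. Library totals alone left 1 region lower in Rosa H2B-FLAG tChIP-Seq against single ChIP-Seq, in place of 3, and 3 positive interactions.

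Leaving out each library in turn gave 8 to 9 higher and 9 to 11 lower between the lines in tChIP-Seq, 1 higher and 0 lower in single ChIP-Seq, 23 to 27 higher and 0 to 3 lower for tChIP-Seq against single ChIP-Seq in Rosa H2B-FLAG, 16 to 18 higher and 2 lower in Camk2a H2B-FLAG, and 2 to 6 positive and 11 to 12 negative interactions. The 0 was without Rosa H2B-FLAG tChIP-Seq replicate 1, and the interactions fell to 3 without Rosa H2B-FLAG tChIP-Seq replicate 2 and to 2 without Camk2a H2B-FLAG single ChIP-Seq replicate 1. Same-numbered libraries of different groups had correlations of -0.0183 to 0.0446 in their deviations from the group means. Replicates differed by little more than counting error (chi-square per degree of freedom 1.03 to 1.09). A shared lysate may then leave little correlation, so this check cannot decide whether the numbers mark pairs. The main fits did not take them as pairs. A fit with the replicate block gave 9 higher and 11 lower in tChIP-Seq between the lines, 1 and 0 in single ChIP-Seq, 27 and 3 in Rosa H2B-FLAG, 18 and 2 in Camk2a H2B-FLAG, and 5 and 12 for the interaction. Where other values moved, the cause was not tested. Depth limits the regions with the fewest counts, such as Col1a1, Col1a2 and Col4a3/Col4a4, and Rosa H2B-FLAG tChIP-Seq has the lowest totals.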

Other observations

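The lists of genes that work with collagens and laminins were also read between tChIP-Seq and single ChIP-Seq within each line. Of all regions, 24.7% were higher and 22.5% lower in Rosa H2B-FLAG, and 25.3% higher and 22.6% lower in Camk2a H2B-FLAG. Of the other matrix partners, 8 of 9 regions were higher in Rosa H2B-FLAG (median log2 fold change 1.02), and 3 were higher and 2 lower in Camk2a H2B-FLAG (median -0.06). Of the receptors, 8 of 13 were higher and 1 lower in Rosa H2B-FLAG (median 0.70), and 3 were higher and 4 lower in Camk2a H2B-FLAG (median 0.03). Of the processing and cross-linking enzymes, 7 of 11 were higher in Rosa H2B-FLAG (median 1.08), and 8 were higher and 1 lower in Camk2a H2B-FLAG (median 0.63). Of the biosynthesis enzymes and chaperones, 6 of 15 were higher and 2 lower in Rosa H2B-FLAG (median 0.19), and 2 were higher and 2 lower in Camk2a H2B-FLAG (median -0.01).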
